A study of Homo sapiens with 11 samples.

Results

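The genes of sterol and fatty acid synthesis that answer to the SREBP transcription factors were followed in hTert-HME1, an epithelial cell line of the human breast kept dividing by a telomerase transgene. The list held 30 gene symbols, picked by their role in the pathway. Of these, 29 were matched to an Ensembl gene of the deposited table, and all 29 passed the filter for a test (a log2 value of 3.32 or above in 2 or more libraries), beside 17945 tested genes in a table of 40460. ACACA was not matched and was not analysed here. Total RNA was depleted of ribosomal RNA and sequenced in 11 libraries, all labelled passage 6 and all from cells transfected with an siRNA in mammary epithelial growth medium. The groups were BRCA2 siRNA without EGF (3 libraries), BRCA2 siRNA with EGF (3 libraries), control siRNA without EGF (2 libraries, replicates A and C) and control siRNA with EGF (3 libraries). EGF is epidermal growth factor, the ligand of the EGF receptor. Each target was represented by a single siRNA, labelled BRCA2-1 or control-2, so off-target effects of the siRNA and effects through BRCA2 cannot be told apart. The labels call A, B and C biological replicates, and the p-values below measure the spread left between these libraries in the deposited values.

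The targeted gene was examined first. Without EGF, BRCA2 had log2 values of 12.48, 12.27 and 12.11 in the libraries labelled BRCA2 siRNA, against 11.44 and 11.65 in control siRNA libraries, a log2 difference of 0.74 ± 0.13 (SE; limma, adjusted p = 0.00397). With EGF it had 12.43, 12.37 and 12.40 in the libraries labelled BRCA2 siRNA, against 12.45, 12.13 and 12.48 in control siRNA libraries, a difference of 0.05 ± 0.12 (limma, adjusted p = 0.999). The libraries labelled BRCA2 siRNA thus held, on average, no less BRCA2 RNA than their controls, and every direction given below for that siRNA rests on the label alone.

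Cells make cholesterol and fatty acids from acetyl-CoA. The mevalonate pathway builds the isoprenoid chain that becomes squalene, lanosterol and cholesterol, and lipogenesis turns citrate-derived acetyl-CoA into long-chain and unsaturated fatty acids. The genes of both branches share activators, the proteins encoded by SREBF1 and SREBF2, which are made as precursors in the endoplasmic reticulum membrane. When membrane sterol is low, SCAP escorts the precursors to the Golgi for cleavage, and when it is high, INSIG1 retains them. In mammary epithelium the same enzymes supply membrane lipid for growing cells and milk fat in lactation.

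The proximal promoters are shown for the motifs through which SREBP and its partners are known to act. A RefSeq promoter window of 250 bases before the transcription start (GRCh38.p14) was found for 25 of the 29 genes, and 4 of these are printed 5′ to 3′ on the gene's strand. SREBF2 is shown as the only member of the 25 with the sterol regulatory element TCACNCCAC on either strand in its window (chr22:41832855-41833104, plus strand), here in capitals. FDPS (chr1:155308616-155308865, plus strand), MVD (chr16:88663092-88663341, minus strand) and HMGCS1 (chr5:43313413-43313662, minus strand) are shown for their NF-Y boxes, CCAAT or its reverse complement ATTGG, in capitals. The choice of these last promoters was made after the values were seen.
SREBF2: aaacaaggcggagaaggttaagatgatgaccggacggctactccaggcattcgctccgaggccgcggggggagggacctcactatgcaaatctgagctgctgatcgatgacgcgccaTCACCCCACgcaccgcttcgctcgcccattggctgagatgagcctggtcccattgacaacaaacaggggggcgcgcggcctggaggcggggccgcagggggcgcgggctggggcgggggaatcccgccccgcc
FDPS: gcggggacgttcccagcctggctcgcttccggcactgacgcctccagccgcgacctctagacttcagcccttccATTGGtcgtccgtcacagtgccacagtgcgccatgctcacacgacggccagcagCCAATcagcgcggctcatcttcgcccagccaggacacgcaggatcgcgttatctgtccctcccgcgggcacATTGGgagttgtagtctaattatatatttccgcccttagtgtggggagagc
MVD: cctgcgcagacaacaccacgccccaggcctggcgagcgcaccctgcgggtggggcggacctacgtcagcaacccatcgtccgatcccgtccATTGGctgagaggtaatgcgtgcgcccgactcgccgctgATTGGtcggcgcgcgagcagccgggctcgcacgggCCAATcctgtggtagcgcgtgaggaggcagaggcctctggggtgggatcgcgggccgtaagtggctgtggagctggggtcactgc
HMGCS1: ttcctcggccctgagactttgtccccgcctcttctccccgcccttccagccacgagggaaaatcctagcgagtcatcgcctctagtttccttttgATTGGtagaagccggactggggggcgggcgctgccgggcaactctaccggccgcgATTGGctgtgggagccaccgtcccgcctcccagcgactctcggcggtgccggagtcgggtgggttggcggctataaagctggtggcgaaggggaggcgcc

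FDPS and MVD each held 3 NF-Y boxes and HMGCS1 held 2. The NF-Y box lay in the window of 18 of the 25 genes (72%), against 32% of all 35116 promoter windows. The Sp1 box GGGCGG, searched on both strands, lay in 24 of the 25 (96%), against 42.6% of all windows. The sterol regulatory element lay in 0.883% of all windows, and the E-box CACGTG in 3 of the 25 genes (12%) against 6.34% of all windows. The 3 genes with the E-box were INSIG1, SC5D and SCAP. These matches describe letters in a window of fixed length, and no motif was tied to a difference between groups.

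The deposited values are log2 expression values with no counts behind them, so the depth of the libraries is unknown, and a value of a gene is not scaled to its length. The per-library medians over the tested genes lay between 8.55 and 8.60. In every gene the mean of the 4 replicate A libraries equalled the mean of the 7 replicate B and C libraries to within 7.2e-09. The deposited values had thus been centred between A and the rest, and differences within A and within B and C are given beside the main results. The centring took the mean difference between A and the rest out of the spread that the p-values measure. The main fit had no term for it. With a term for replicate A, 12 members were called in control cells, the same count as in the main fit. All 8 basal epithelial markers looked up passed the filter, with per-library means between 14.96 and 15.92, whereas 4 of the 8 luminal markers (KRT19, EPCAM, ELF5 and KIT) lay below it. Of 6 fibroblast markers 5 were tested, and their mean log2 value was 8.01 to 8.79 in BRCA2 siRNA libraries without EGF, 7.34 to 7.59 in BRCA2 siRNA libraries with EGF, 9.18 to 9.20 in control libraries without EGF and 7.28 to 7.52 in control libraries with EGF. Of 6 adipocyte markers 1 was tested (FABP4), of 4 endothelial markers 1 (KDR) and of 4 leukocyte markers 0. FABP4 was higher without EGF by 2.80 with BRCA2 siRNA and by 3.95 with control siRNA. The part of these shifts in the results below was not tested. In bulk RNA, fewer cells of a type and less RNA per cell cannot be told apart.

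With control siRNA, EGF withdrawal was accompanied by lower levels of 12 of the 29 genes and by a higher level of none, at a limma p adjusted over all tested genes under 0.05. Among all 17945 tested genes, 26.1% were called lower and 24.7% higher in the same comparison, against 41.4% of the members lower. The median log2 difference of the members was -0.61, that of all genes 0.00. Of the isoprenoid steps, ACAT2, MVD and FDPS were called, and of the squalene and sterol steps FDFT1, CYP51A1, TM7SF2, EBP and DHCR7. The others were STARD4 of sterol transport and the fatty acid desaturases on the list, SCD, FADS1 and FADS2. ACLY, FASN and ELOVL6 of fatty acid synthesis and the regulators SREBF1, SREBF2, SCAP and INSIG1 were not called.

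**Figure D1:**
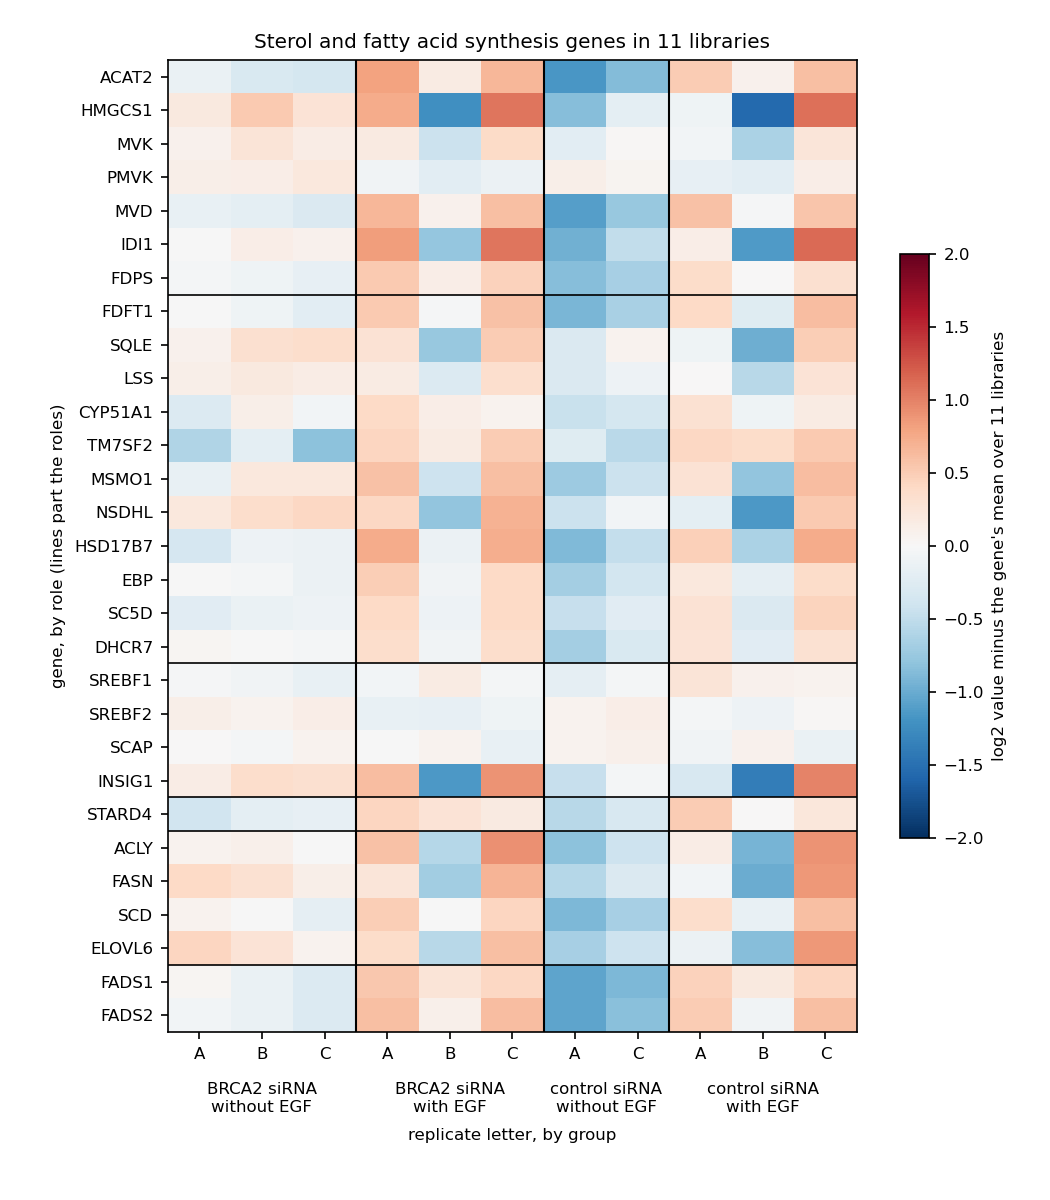
Log2 value of each of the 29 genes (rows, grouped by role) in each of the 11 libraries (columns, by group and replicate letter), shown as the difference from the gene's mean over all libraries. The colour scale runs between lower (blue) and higher (red) values; the replicate B columns with EGF are low in HMGCS1, IDI1 and INSIG1 in both siRNA groups, and both control columns without EGF are low in most enzymes.

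Of the genes that supply isoprenoid units, ACAT2, which joins 2 acetyl-CoA molecules to form acetoacetyl-CoA, had the largest fall in control cells by fold. ACAT2 had log2 values of 12.68, 12.51 and 12.46 in BRCA2 siRNA libraries without EGF, 13.61, 12.98 and 13.48 in BRCA2 siRNA libraries with EGF, 11.64 and 11.94 in control libraries without EGF and 13.32, 12.89 and 13.41 in control libraries with EGF. All 5 libraries without EGF lay below all 6 with EGF, and the 2 control libraries without EGF were the lowest. The difference in control cells was -1.42 ± 0.19 (SE; 2.67-fold lower without EGF; limma, adjusted p = 0.000164). MVD, which decarboxylates mevalonate diphosphate to the isoprene unit, had 11.64, 11.59 and 11.50 in BRCA2 siRNA libraries without EGF, 12.46, 11.88 and 12.40 in BRCA2 siRNA libraries with EGF, 10.69 and 11.04 in control libraries without EGF and 12.38, 11.77 and 12.35 in control libraries with EGF. Its groups without and with EGF did not overlap in either siRNA, and replicate B was the lowest library with EGF in both. The control difference was -1.30 ± 0.21 (limma, adjusted p = 0.000406).

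FDPS makes farnesyl diphosphate, the branch point to sterols, prenylated proteins and ubiquinone. It had 12.04, 12.00 and 11.91 in BRCA2 siRNA libraries without EGF, 12.60, 12.22 and 12.54 in BRCA2 siRNA libraries with EGF, 11.23 and 11.42 in control libraries without EGF and 12.45, 12.09 and 12.40 in control libraries with EGF. Again no library without EGF reached any library with EGF. The control difference was -0.99 ± 0.13 (limma, adjusted p = 0.000163). FDFT1, squalene synthase, commits farnesyl diphosphate to sterols. It fell by 1.04 ± 0.23 on the log2 scale without EGF in control cells (limma, adjusted p = 0.00339), with 13.23 and 13.50 without EGF against 14.54, 13.91 and 14.76 with EGF.

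**Figure D2:**
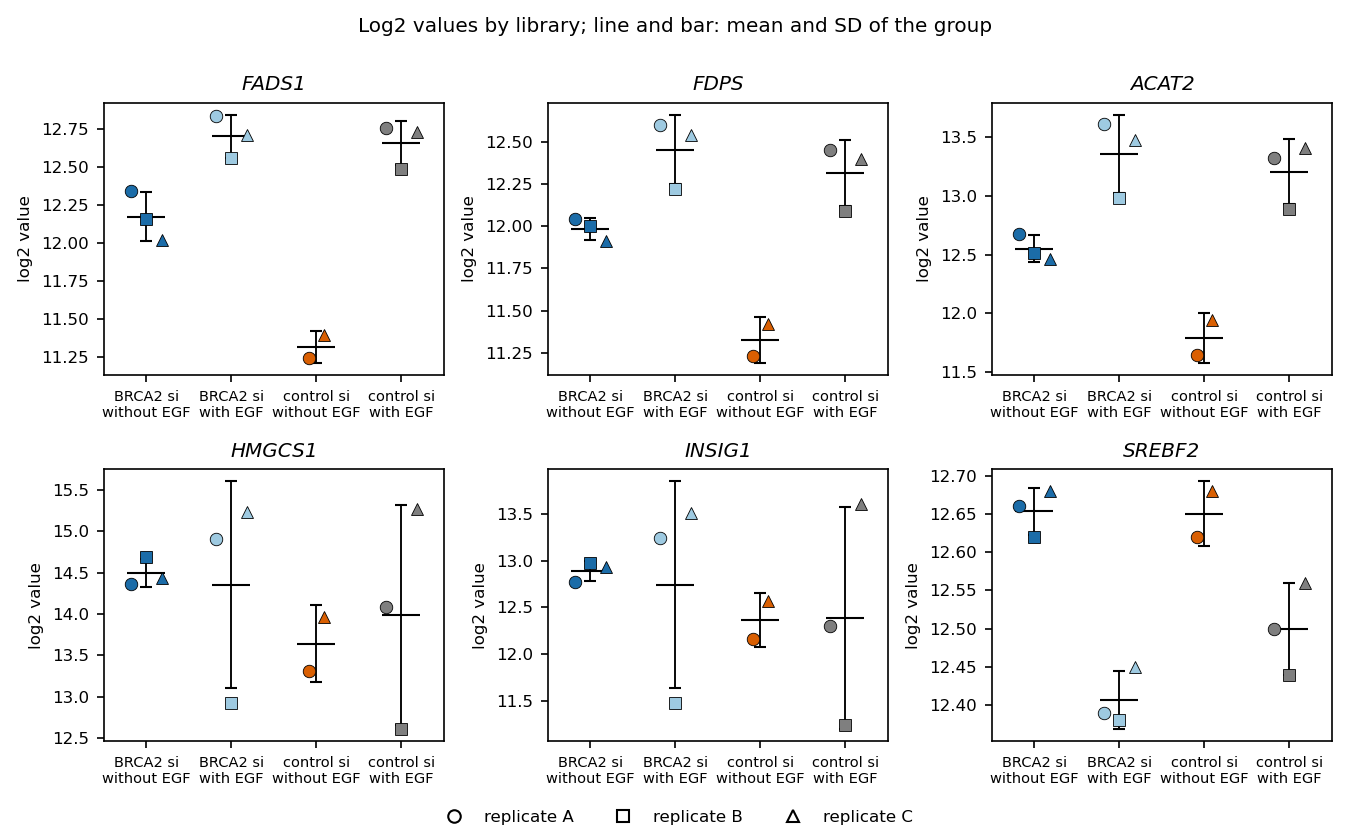
Log2 values (vertical axis, a separate scale for each panel) of FADS1, FDPS, ACAT2, HMGCS1, INSIG1 and SREBF2, one point per library with its shape giving the replicate letter, in the 4 groups; lines and bars are group means and SDs. FADS1 and ACAT2 without EGF lie below all libraries with EGF, whereas in HMGCS1 the replicate B libraries with EGF, at 12.93 and 12.61, lie below every other library.

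Of the enzymes after lanosterol, TM7SF2, a sterol reductase of the endoplasmic reticulum, had 7.15, 7.56 and 6.94 in BRCA2 siRNA libraries without EGF, 8.19, 7.91 and 8.26 in BRCA2 siRNA libraries with EGF, 7.51 and 7.21 in control libraries without EGF and 8.16, 8.12 and 8.28 in control libraries with EGF. Its libraries without EGF all lay below those with EGF. The control difference was -0.82 ± 0.18 (limma, adjusted p = 0.00329). EBP, a sterol isomerase, DHCR7, the reductase that completes cholesterol from 7-dehydrocholesterol, and CYP51A1, the lanosterol demethylase, also fell, by 0.66, 0.61 and 0.52 on the log2 scale (limma, adjusted p = 0.0111 for EBP, 0.0148 for DHCR7 and 0.022 for CYP51A1). Leaving out control replicate A without EGF ended the calls of EBP, DHCR7 and CYP51A1 (limma, adjusted p = 0.115 for EBP, 0.158 for DHCR7 and 0.119 for CYP51A1). Leaving out control replicate A with EGF ended those of DHCR7 and CYP51A1 (adjusted p = 0.0548 and 0.0805), and leaving out control replicate C without EGF ended that of CYP51A1 (0.0693). STARD4, a cytosolic sterol carrier, had 12.58, 12.77 and 12.80 in BRCA2 siRNA libraries without EGF, 13.39, 13.23 and 13.14 in BRCA2 siRNA libraries with EGF, 12.40 and 12.64 in control libraries without EGF and 13.47, 12.97 and 13.18 in control libraries with EGF. It fell by 0.69 ± 0.14 in control cells (limma, adjusted p = 0.00212), again with no overlap between media.

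Of the fatty acid desaturases, FADS1 had the smallest adjusted p on the list. FADS1, the delta-5 desaturase of polyunsaturated fatty acids, had 12.34, 12.16 and 12.02 in BRCA2 siRNA libraries without EGF, 12.84, 12.56 and 12.71 in BRCA2 siRNA libraries with EGF, 11.24 and 11.39 in control libraries without EGF and 12.76, 12.49 and 12.73 in control libraries with EGF. Control cells without EGF were thus set apart from all 9 other libraries by more than the spread within any group. The difference in control cells was -1.34 ± 0.12 (2.53-fold lower without EGF; limma, adjusted p = 1.96e-05). FADS2, the delta-6 desaturase, had 11.41, 11.33 and 11.19 in BRCA2 siRNA libraries without EGF, 12.06, 11.56 and 12.08 in BRCA2 siRNA libraries with EGF, 10.41 and 10.63 in control libraries without EGF and 11.97, 11.40 and 12.07 in control libraries with EGF, a control difference of -1.30 ± 0.20 (limma, adjusted p = 0.000362). FADS1 and FADS2 overlap each other on opposite strands in the annotation, and the strand setting of the counting is not given in the sources used here, so reads could be split between them. The same limit holds for the 17 members that have a gene on the opposite strand, ACAT2 and STARD4 among them, and for the 7 that overlap a gene on their own strand, among them TM7SF2 (VPS51), FADS2 (FEN1) and CYP51A1. FDPS has 8 annotated pseudogenes by name and CYP51A1 has 3, so their reads may be shared. SCD, the stearoyl-CoA desaturase that makes oleic acid, had 16.06, 15.98 and 15.81 in BRCA2 siRNA libraries without EGF, 16.48, 15.98 and 16.43 in BRCA2 siRNA libraries with EGF, 15.09 and 15.33 in control libraries without EGF and 16.35, 15.84 and 16.59 in control libraries with EGF. Its control difference was -1.05 ± 0.21 (limma, adjusted p = 0.00166). Its BRCA2 siRNA libraries overlapped between media, at 15.81 to 16.06 without EGF and 15.98 to 16.48 with EGF.

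In all 12 genes the control difference had the same sign within replicate A, where it ran between -1.69 and -0.65, and within replicates B and C, where it ran between -1.21 and -0.34. With the B and C libraries alone, 3 of the 12 passed the test: FADS1, ACAT2 and FDPS. In 13 of the 29 genes both control libraries without EGF lay below all 3 with EGF, against 33.6% of all genes. These were the 12 called genes and SREBF1.

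None of the regulators SREBF1, SREBF2, SCAP and INSIG1 passed the test in control cells (limma, adjusted p 0.05). The unadjusted limma p was under 0.05 in 15 of the 29 members and in 10246 of the 17945 tested genes. SREBF1, whose product drives the lipogenic genes in particular, had 11.02, 10.96 and 10.89 in BRCA2 siRNA libraries without EGF, 10.98, 11.20 and 10.99 in BRCA2 siRNA libraries with EGF, 10.86 and 10.99 in control libraries without EGF and 11.29, 11.12 and 11.10 in control libraries with EGF. The control difference was -0.24 and did not pass the test (limma, adjusted p = 0.0604). SREBF2, whose product drives the sterol genes in particular, had 12.66, 12.62 and 12.68 in BRCA2 siRNA libraries without EGF, 12.39, 12.38 and 12.45 in BRCA2 siRNA libraries with EGF, 12.62 and 12.68 in control libraries without EGF and 12.50, 12.44 and 12.56 in control libraries with EGF. Its values without EGF lay above those with EGF in both siRNA groups, with a difference of 0.15 in control cells that did not pass (limma, adjusted p = 0.0942). SCAP had 11.04, 11 and 11.11 in BRCA2 siRNA libraries without EGF, 11.03, 11.11 and 10.89 in BRCA2 siRNA libraries with EGF, 11.11 and 11.14 in control libraries without EGF and 10.97, 11.12 and 10.90 in control libraries with EGF, and its groups overlapped. Under quantile normalization SREBF2 and SCAP passed the test in control cells, at 0.40 and 0.35, both higher without EGF.

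**Figure D3:**
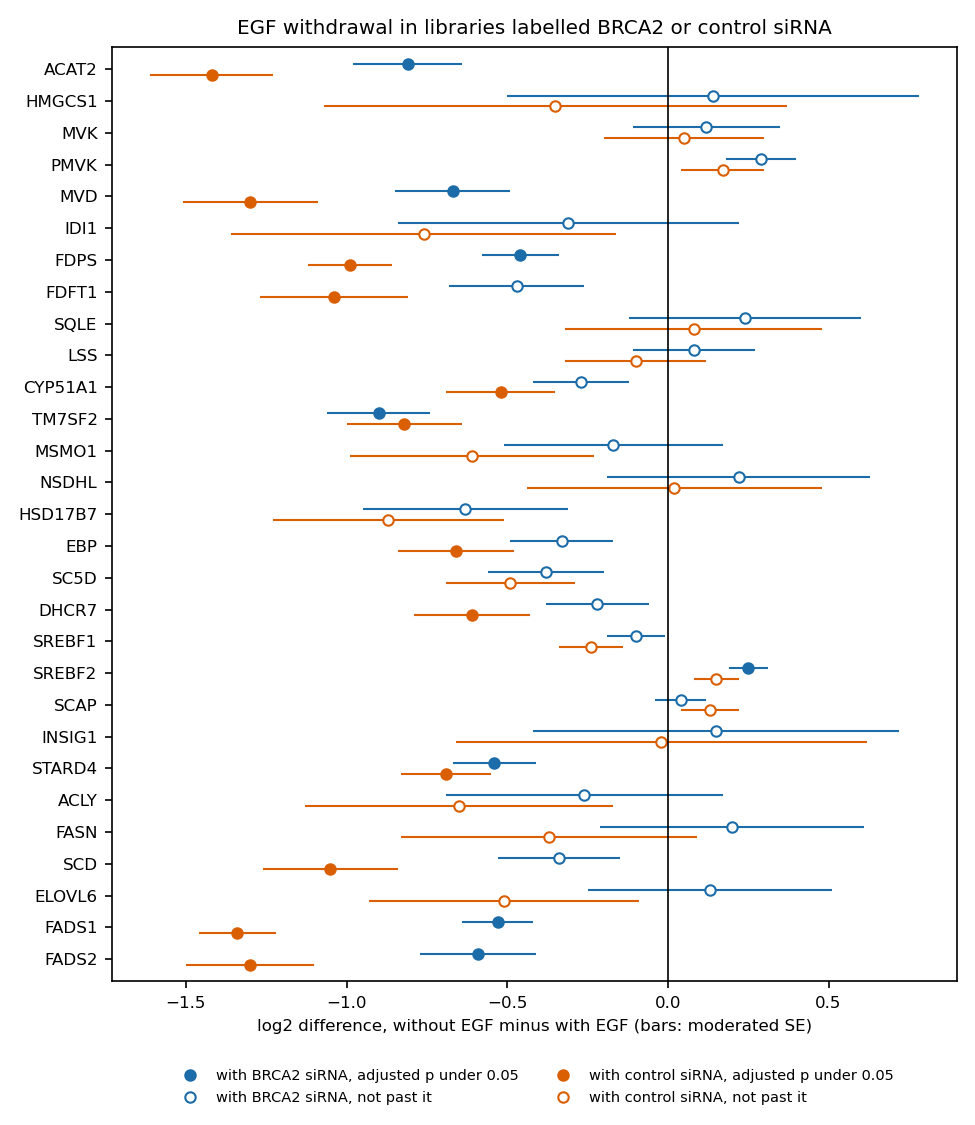
Log2 difference without EGF minus with EGF (horizontal axis) for each of the 29 genes, with BRCA2 siRNA and with control siRNA; bars are moderated standard errors and filled points passed a limma test at adjusted p under 0.05. The bars are widest in HMGCS1, IDI1 and INSIG1 (0.72 for HMGCS1 in control cells), while FADS1 in control cells lies at -1.34 with a standard error of 0.12.

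The other 17 genes were not called in control cells, and they included enzymes with the widest spread between replicates. HMGCS1, the HMG-CoA synthase of the cytosol, had 14.36, 14.69 and 14.44 in BRCA2 siRNA libraries without EGF, 14.91, 12.93 and 15.23 in BRCA2 siRNA libraries with EGF, 13.31 and 13.97 in control libraries without EGF and 14.08, 12.61 and 15.27 in control libraries with EGF. The replicate B libraries with EGF were the lowest and the replicate C libraries with EGF the highest of all 11. The control difference of -0.35 ± 0.72 (limma, adjusted p = 0.706) was smaller than that spread. IDI1, the isomerase of the isoprene units, had 11.57, 11.71 and 11.66 in BRCA2 siRNA libraries without EGF, 12.42, 10.80 and 12.65 in BRCA2 siRNA libraries with EGF, 10.62 and 11.09 in control libraries without EGF and 11.71, 10.44 and 12.71 in control libraries with EGF. INSIG1, the sterol-sensing retention protein, had 12.77, 12.97 and 12.93 in BRCA2 siRNA libraries without EGF, 13.24, 11.47 and 13.51 in BRCA2 siRNA libraries with EGF, 12.16 and 12.57 in control libraries without EGF and 12.30, 11.24 and 13.61 in control libraries with EGF. HMGCS1 and IDI1 were singled out after their values were seen.

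The remaining uncalled enzymes had smaller or more variable differences in control cells. In the sterol branch, HSD17B7, a sterol ketoreductase, differed by -0.87 ± 0.36 (limma, adjusted p = 0.0618), SC5D, a sterol desaturase, by -0.49 ± 0.20 (0.0636) and MSMO1, a methylsterol oxidase, by -0.61 ± 0.38 (0.199). SQLE, the squalene epoxidase, LSS, which closes the lanosterol rings, NSDHL, a sterol decarboxylase, and the kinases MVK and PMVK lay between -0.10 and 0.17. Of the lipogenic enzymes, ACLY, which cleaves citrate to acetyl-CoA, differed by -0.65 ± 0.48, the elongase ELOVL6 by -0.51 ± 0.42 and the fatty acid synthase FASN by -0.37 ± 0.46 (limma, adjusted p = 0.277, 0.33 and 0.528). With standard errors this wide, differences of this size could not be told from 0.

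With EGF, replicate B lay below replicate C in most of the list. In HMGCS1, INSIG1 and IDI1, replicate A with EGF lay between B and C in both siRNA groups. A difference of B minus C does not tell a low B from a high C. Replicate B was at least 1.5-fold below replicate C in 13 of the 29 genes (44.8%) with BRCA2 siRNA and EGF, against 7.08% of all genes, and in 16 (55.2%) with control siRNA and EGF, against 9.64%. With BRCA2 siRNA without EGF it was so in 0 of the 29 genes, against 2.65%. For HMGCS1 the log2 difference of B minus C was 0.24 with BRCA2 siRNA without EGF, -2.30 with BRCA2 siRNA with EGF and -2.66 with control siRNA with EGF. For INSIG1 it was 0.03, -2.05 and -2.37 in the same order of groups, and for IDI1 0.05, -1.85 and -2.27. The median over the 29 genes was 0.07, -0.52 and -0.74, against medians of all genes between 0.00 and 0.02. No control library of replicate B without EGF is among the 11, so replicate B cannot be compared between media in control cells. What set the B and C libraries with EGF apart from each other was not tested.

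**Figure D4:**
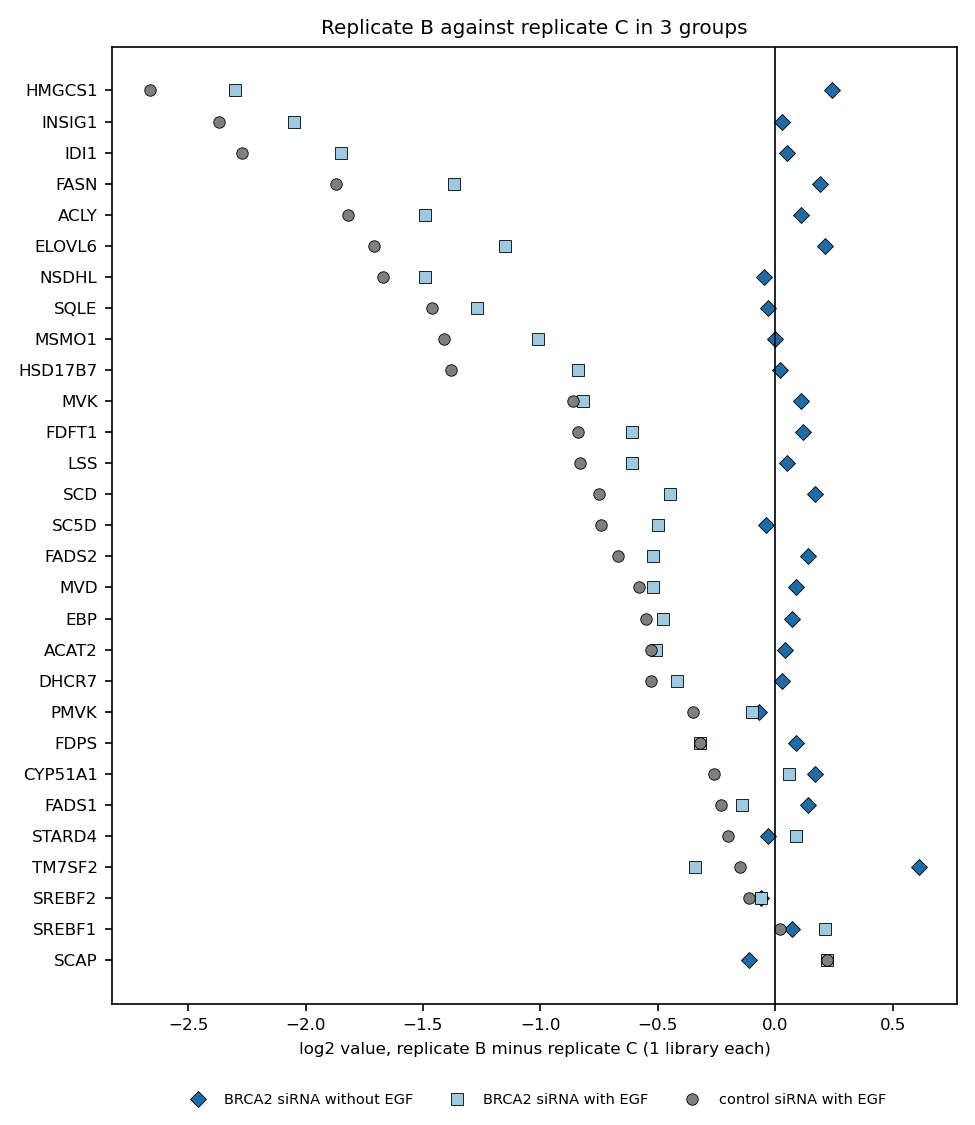
Log2 difference of replicate B minus replicate C (horizontal axis) for each of the 29 genes in the 3 groups that have both, 1 library each, with the genes ordered by their value in control siRNA with EGF. With EGF the points of HMGCS1, INSIG1 and IDI1 lie between -2.66 and -1.85, and without EGF the points of all members lie between -0.11 and 0.61.

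An alternative fit left out both replicate B libraries with EGF and was chosen after the members' low values in them were seen. In it, 22 of the 29 genes were called lower in control cells without EGF and none higher, against 27.2% of all genes lower. The libraries left out held the lowest values with EGF of HMGCS1, IDI1 and INSIG1. The calls and p-values of this fit are therefore no test of the members. The share of all genes was not selected in the same way, so it is no test of the 22. The genes added were HMGCS1, IDI1, LSS, MSMO1, HSD17B7, SC5D, ACLY, FASN, ELOVL6 and SREBF1. HMGCS1 then differed by -1.04 ± 0.32 and IDI1 by -1.35 ± 0.26, while INSIG1, at -0.59 ± 0.31, did not pass (limma, adjusted p = 0.136). The omission of a single control library with EGF was also fitted. Without replicate B, 17 members were called lower (median -0.84), beside 4287 of all tested genes. Without replicate C, 13 members were called lower (median -0.33), beside 5230 of all tested genes.

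**Figure D5:**
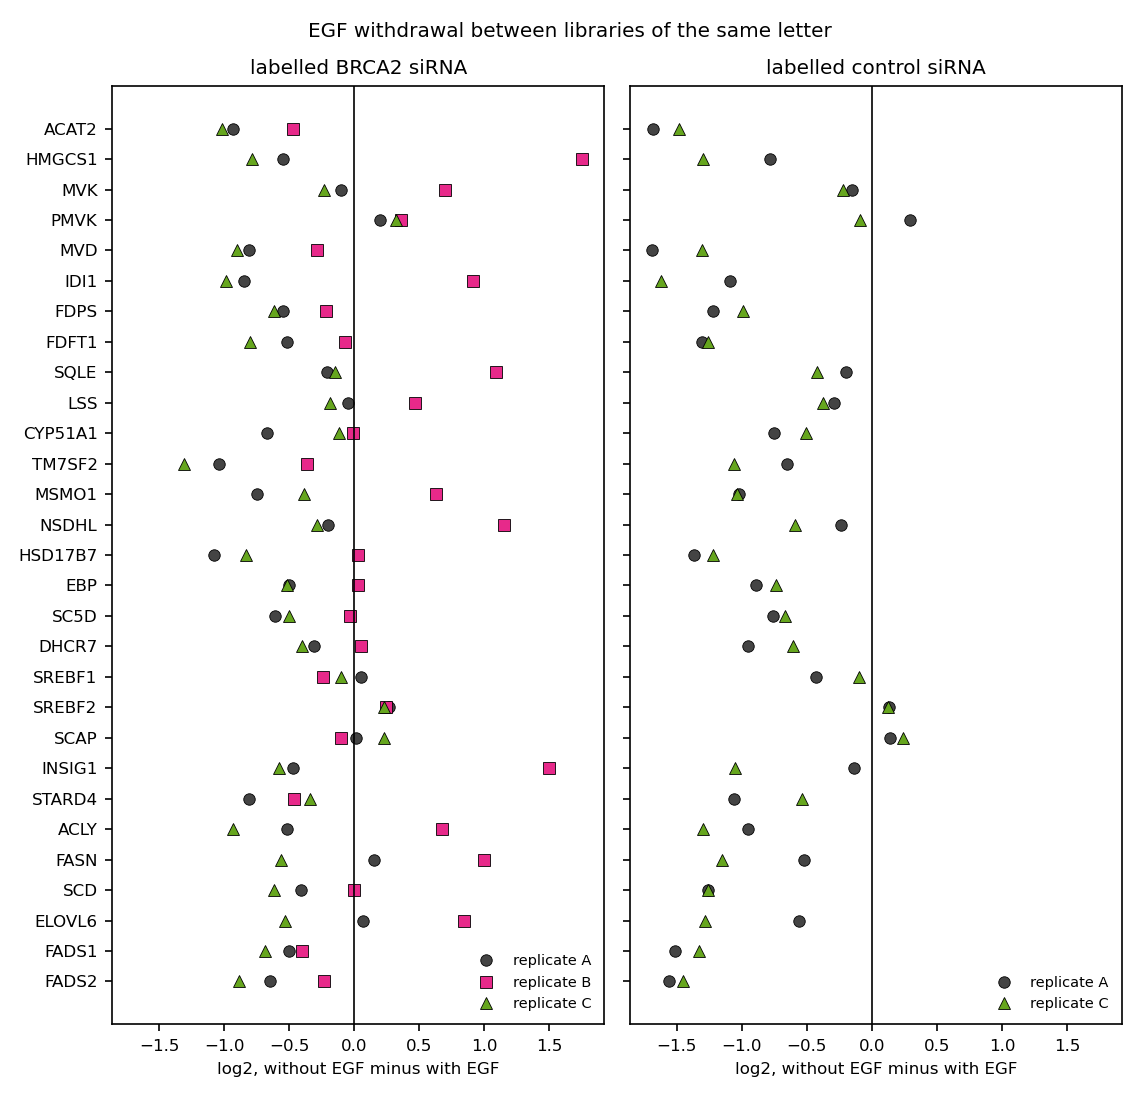
Log2 difference without EGF minus with EGF (horizontal axis) between libraries of the same replicate letter, one row of points per gene (points are libraries of replicate A, B or C), with BRCA2 siRNA (left; letters A, B and C) and control siRNA (right; letters A and C). HMGCS1 lay at -0.55, 1.75 and -0.79 for A, B and C with BRCA2 siRNA, and at -0.78 and -1.30 for A and C with control siRNA.

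Between libraries of the same letter, 23 of the 29 genes were lower without EGF in both A and C with BRCA2 siRNA, against 38.5% of all genes, and 26 with control siRNA, against 41.1%. In replicate B with BRCA2 siRNA, 13 of the 29 were lower and 16 higher without EGF, with a median of 0.03 against 0.00 over all genes. HMGCS1 differed by 1.75 there, and by -0.55 in A and -0.79 in C.

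With BRCA2 siRNA, EGF withdrawal was accompanied by lower levels of 7 of the 29 genes (24.1%) and a higher level of 1, against 13.8% lower and 13.4% higher among all genes. The median member difference was -0.26. The 7 were TM7SF2 at -0.90, ACAT2 at -0.81, MVD at -0.67, FADS2 at -0.59, STARD4 at -0.54, FADS1 at -0.53 and FDPS at -0.46, and all of them were also called lower with control siRNA. The gene called higher was SREBF2, at 0.25 ± 0.06 (limma, adjusted p = 0.0158), whose 3 libraries without EGF lay at 12.62 to 12.68 against 12.38 to 12.45 with EGF. In 7 of the 29 genes (24.1%), the same 7, every BRCA2 siRNA library without EGF lay below every one with EGF, close to the 24.4% of all genes. The differences of these 7 ran between -1.04 and -0.50 within A and between -0.84 and -0.40 within B and C, and SREBF2 differed by 0.27 within A and 0.24 within B and C. The SREBF2 call ended without BRCA2 siRNA replicate A with EGF (limma, adjusted p = 0.0604), without BRCA2 siRNA replicate C without EGF (0.0559) and with replicates B and C alone (0.288). The count of 8 was 3 without BRCA2 siRNA replicate A with EGF, 4 without BRCA2 siRNA replicate C without EGF and 5 without BRCA2 siRNA replicate B without EGF. It was 17 (16 lower, and SREBF2 higher) without both replicate B libraries with EGF, against 14.9% of all genes called lower in that fit. That omission was chosen after the members' values in those libraries were seen, so neither the calls nor the share are a test of the members.

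Over both siRNA groups, 6 of the 29 genes had all 5 libraries without EGF below all 6 with EGF, against 15.6% of all genes: ACAT2, MVD, FDPS, TM7SF2, STARD4 and FADS1.

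Without EGF, the libraries labelled BRCA2 siRNA had higher levels than control libraries of 6 of the 29 genes (20.7%) and a lower level of none, against 11.2% higher and 9.36% lower among all genes. The median member difference was 0.53. These 6 were FADS1 at 0.85 ± 0.12 (1.81-fold higher with BRCA2 siRNA; limma, adjusted p = 0.00225), FDPS at 0.66 ± 0.13 (0.00773), FADS2 at 0.79 ± 0.20 (0.0189), ACAT2 at 0.76 ± 0.19 (0.019), SCD at 0.74 ± 0.21 (0.0279) and MVD at 0.71 ± 0.21 (0.0312). FDFT1, at 0.68 ± 0.23, lay just outside the threshold (limma, adjusted p = 0.0581). The 6 genes are also among the 12 that were lower without EGF in control cells, a comparison that shares the same 2 control libraries without EGF.

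In 23 of the 29 genes all 3 BRCA2 siRNA libraries without EGF lay above both control libraries without EGF, against 33.2% of all genes, and 25 were higher in both A and C, against 39.7%. The exceptions to the 23 were TM7SF2, STARD4, PMVK, SREBF1, SREBF2 and SCAP. TM7SF2 differed by -0.15 ± 0.18 (limma, adjusted p = 0.611) and SREBF2 by 0.01 ± 0.07 (0.962). The called differences ran between 0.81 and 1.10 within A and between 0.51 and 0.69 within B and C. The count of 6 was 1, FADS1, without control replicate A without EGF. It was 2, FADS1 and FDPS, without control replicate C, BRCA2 siRNA replicate A or BRCA2 siRNA replicate B without EGF. It was 18 without both replicate B libraries with EGF, against 16.4% of all genes called higher in that fit. That omission was chosen after the members' values in those libraries were seen, so neither the 18 calls nor the share are a test of the members. With these 2 groups compared alone the count was 21 members, beside 6776 of the 17945 tested genes past the threshold in either direction. Of the 5 fibroblast markers tested, 4 were lower with BRCA2 siRNA in this comparison, among them COL1A1 at -1.07 and COL3A1 at -0.91, and LUM, at 0.43, did not pass (limma, adjusted p = 0.131). Their part in it was not tested.

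With EGF, no member passed the test between BRCA2 siRNA and control libraries by limma, and none had an unadjusted p under 0.05. Among all genes 1 was called lower (0.00557%) and 0 higher (0%), and 508 had an unadjusted p under 0.05. FADS1, for example, had 12.84, 12.56 and 12.71 with BRCA2 siRNA against 12.76, 12.49 and 12.73 with control siRNA. The median member difference was 0.14, against 0.00 over all genes. Between libraries of the same letter it was 0.14 in A, 0.20 in B and -0.02 in C, against -0.01, 0.00 and 0.01 over all genes. HMGCS1 differed by 0.37 ± 0.64 and INSIG1 by 0.35 ± 0.57.

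The difference between the EGF effects in the 2 siRNA groups was tested as an interaction. FADS1 was called, at 0.81 ± 0.16 (limma, adjusted p = 0.0309), with a withdrawal difference of -0.53 with BRCA2 siRNA and -1.34 with control siRNA. It was the single member past the threshold, and 1.38% of all genes were called with a positive and 1.93% with a negative interaction. The value was 1.02 within A and 0.67 within B and C. Leaving out any 1 of 6 libraries ended the call, with adjusted p between 0.0719 and 0.157 and log2 values between 0.73 and 0.89: BRCA2 siRNA replicates A and B without EGF, BRCA2 siRNA replicate C with EGF, control replicates A and C without EGF and control replicate A with EGF. SCD and FADS2, at 0.71 each, and ACAT2, at 0.61, did not pass (limma, adjusted p = 0.169, 0.157 and 0.197). Without both replicate B libraries with EGF, 6 members passed, all positive: FADS1, FADS2, SCD, FDFT1, FDPS and MVD. In that fit 1.88% of all genes had a positive and 1.77% a negative call. The omission was chosen after the members' values in those libraries were seen, so neither the 6 calls nor the shares are a test of the members.

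Other genes around the pathway were followed through lists of related functions. Their counts stand beside all-gene shares of 13.8% lower and 13.4% higher without EGF with BRCA2 siRNA, and of 26.1% lower and 24.7% higher with control siRNA. Of 25 genes of fatty acid supply, activation, elongation and glycerolipid use, 8 fell and 1 rose without EGF with BRCA2 siRNA (median -0.11), and 12 fell and 4 rose with control siRNA (median -0.20). ACSS2, which makes acetyl-CoA from acetate, fell by 1.17 on the log2 scale with BRCA2 siRNA and by 1.64 with control siRNA. ELOVL1, a very-long-chain elongase, fell by 0.81 with BRCA2 siRNA and by 1.21 with control siRNA, and ME1, the malic enzyme that supplies NADPH, by 0.65 and 1.19 in the same order. The 4 genes that rose with control siRNA were SCD5, ACACB (by 0.97), ACSL5 (by 0.91) and HACD2 (by 0.77). SCD5, the second human stearoyl-CoA desaturase, rose by 0.97 ± 0.26 with BRCA2 siRNA and by 2.18 ± 0.29 with control siRNA (limma, adjusted p = 0.0182 and 0.000132). It went against SCD in control cells, where SCD fell by 1.05. With BRCA2 siRNA, SCD was not called (-0.34 ± 0.19; limma, adjusted p = 0.183).

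Of 10 other users of mevalonate products, 4 fell and 0 rose with BRCA2 siRNA (median -0.27), and 5 fell and 0 rose with control siRNA (median -0.39). COQ2, which prenylates the ubiquinone ring, fell by 0.36 with BRCA2 siRNA and by 1.04 with control siRNA, and RABGGTB, a subunit of Rab prenyltransferase, by 0.60 and 0.82 in the same order. Of 10 genes of SREBP processing and sterol-regulated degradation, 1 fell with BRCA2 siRNA (median -0.11), and 5 fell and 1 rose with control siRNA (median -0.25). PAQR3, a Golgi protein that tethers SCAP, fell by 0.42 with BRCA2 siRNA and by 1.13 with control siRNA. The 2 proteases went opposite ways in control cells: MBTPS1, the site-1 protease, rose by 0.31, and MBTPS2, the site-2 protease, fell by 0.47. Neither was called with BRCA2 siRNA. Of 8 genes of cholesterol transport and storage, none passed with BRCA2 siRNA at an adjusted p under 0.05 (limma), and 1 fell (NPC1, by 0.45) and 1 rose (NPC2, by 0.43) with control siRNA.

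Of 7 genes of the oxysterol receptor LXR and its targets, 2 rose and 1 fell with BRCA2 siRNA (median -0.12), and 3 rose and 1 fell with control siRNA (median -0.21). The genes that fell were the receptors, NR1H3 by 0.45 with BRCA2 siRNA and NR1H2 by 0.46 with control siRNA. The lipoprotein gene APOE rose by 2.75 ± 0.28 with BRCA2 siRNA and by 4.50 ± 0.31 with control siRNA (limma, adjusted p = 0.000357 and 7.05e-06), and the cholesterol exporter ABCA1 by 1.04 and 1.48 in the same order. Between siRNAs without EGF, the counts were 5 higher and 4 lower of the 25 fatty acid genes, 1 higher (COQ2) of the 10 mevalonate users, 1 higher (PAQR3) of the 10 processing genes, 0 of the 8 transport genes and 1 lower (APOE) of the 7 LXR genes, beside 11.2% higher and 9.36% lower among all genes.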

How the data were processed

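Ribosomal RNA was depleted from total RNA and ScriptSeq v2 libraries were made, per the labels' protocols. The authors deposited 1 table of log2 values for 40460 Ensembl genes in 11 libraries, between -2.94 and 20.62. The submitters' processing notes name hg19, TopHat2 2.0.11, DESeq2 and limma, without roles. Which counter, strand setting and log transform made the deposited log2 values is not given in the sources used here, and depth cannot be given. Symbols were matched through a gene name table, which named 37585 genes (92.9%).

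No pseudocount was added to the values. The test covered the 17945 genes at 3.32 or more (10 on the linear scale) in 2 or more libraries. The 11 libraries entered 1 linear model with a mean for each of the 4 groups (limma 3.58.1 in R 4.3.3, with a mean-variance trend), and p-values were adjusted by Benjamini-Hochberg over all tested genes at a threshold of 0.05. Control siRNA without EGF had 2 libraries and the other groups 3 each. Differences are without EGF minus with EGF, BRCA2 siRNA minus control siRNA, and, for the interaction, the withdrawal difference in BRCA2 siRNA cells minus the one in control cells. The script was tested on simulated data. The members and the lists were chosen with earlier results of these data known. Values are printed in full for the regulators and for up to 6 members with the smallest adjusted p in each comparison. HMGCS1 and IDI1 were chosen after their values were seen, and the control values of FDFT1 are printed outside this rule. Some genes of the pathway lists, ME1 among them, were named outside the order of p. Promoters came from RefSeq (GRCh38.p14) and overlaps from GENCODE 29. Alternatives were other filters, quantile normalization, no trend, groups compared alone, a replicate block, a term for replicate A, replicates B and C alone and each library left out.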

Additional observations from a re-analysis of the deposited data

Results flagged for a closer look

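Of the members and the genes of the pathway lists, 4 had an EGF effect that differed between the siRNA groups by the test of the difference itself, the limma interaction, with values on the log2 scale. FADS1 differed by 0.81 (adjusted p = 0.0309), with a withdrawal difference of -0.53 with BRCA2 siRNA and -1.34 with control siRNA. COQ2 differed by 0.68 (adjusted p = 0.032), with -0.36 with BRCA2 siRNA and -1.04 with control siRNA. HACD2, a dehydratase of fatty acid elongation, differed by -0.58 (adjusted p = 0.0307), with 0.18 with BRCA2 siRNA and 0.77 with control siRNA. APOE differed by -1.75 (adjusted p = 0.0477), with 2.75 with BRCA2 siRNA and 4.50 with control siRNA. Of the cell type markers, KRT8 (-0.76), DCN (-1.07), KDR (-2.07) and DSG3 (-1.62) were also called in the interaction (adjusted p = 0.0248, 0.0435, 0.0445 and 0.0478). None of the interaction calls held under every omission of 1 library: 0 genes were past the threshold without control replicate A with EGF, control replicate A or C without EGF, or BRCA2 siRNA replicate C with EGF.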

How the results depend on the processing

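The numbers of the 29 members past the threshold, in the order BRCA2 siRNA withdrawal, control withdrawal, siRNA without EGF, siRNA with EGF and interaction, were 8, 12, 6, 0 and 1, among 4871, 9121, 3687, 1 and 595 genes. With replicates B and C alone they were 0, 3, 0, 0 and 0 members among 47, 2074, 0, 0 and 0 genes, in a fit with fewer libraries. Without both replicate B libraries with EGF they were 17, 22, 18, 0 and 6 members, and 0 genes between siRNAs with EGF. That setting was chosen after the values were seen. Quantile normalization gave 5 members for BRCA2 siRNA withdrawal, 12 (10 lower, 2 higher) for control withdrawal and 4 for siRNA without EGF. The groups compared alone gave 21 members and 6776 genes for siRNA without EGF. Without the trend the interaction had 0 members and 375 genes. Between siRNAs with EGF, the stricter filter, the groups alone and the term for replicate A gave 0 genes. Where no value shows it, the cause of these changes was not tested. Leaving out 1 library gave 3 to 11, 9 to 17, 1 to 9, 0 and 0 to 2 members among 2228 to 6202, 6164 to 10023, 624 to 4767, 0 to 1 and 0 to 1606 genes.

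The share of higher among all called genes was 38.9% for BRCA2 siRNA withdrawal, 36% for control withdrawal and 64.7% for siRNA without EGF under the stricter filter, against 49.2%, 48.7% and 54.4% under the filter used. With no filter it was 43.8% for siRNA without EGF and 28.8% for the interaction, against 54.4% and 41.7%.

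Replicate letters were taken as shared numbers only: with EGF, deviations of same-letter libraries of the 2 siRNA groups correlated at -0.12 for A, 0.70 for B and 0.70 for C, and between media with BRCA2 siRNA at -0.20, -0.11 and 0.02. The centring of A against B and C ties the A values to each other, so the A correlations do not show whether the letter marks a batch. With the replicate block, 11, 17, 16, 0 and 4 members and 5459, 8892, 4181, 0 and 930 genes were past the threshold.

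The 27 called member results had 539 values under the alternatives, counted over results and settings, of which 463 kept direction and call, 76 kept direction and lost the call, and 0 reversed. Of 118 uncalled member results, 43 passed the threshold under some alternative, and 62 changed sign under some alternative, with no changed sign past the threshold. The deposited values hold no counts, so the limit that depth sets is unknown.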
